A study of Mus musculus with 8 samples.

Results

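MHC class II presentation was followed through 10 genes in whole bone marrow (BM) of Gfi1 mutant mice. The genes were H2-Aa, H2-Ab1, H2-Eb1, Cd74, Ciita, H2-DMa, H2-DMb1, H2-DMb2, H2-Oa and H2-Ob, chosen by name, and each was matched to its identifier among the 41214 Ensembl genes counted in every library. RNA-seq of 8 mice was analysed, 2 mice in each of 4 groups. Young KD mice were 39 and 42 days old, young KO mice 48 and 44 days, sick KD mice 187 and 78 days and old KO mice 158 and 101 days. All were C57Bl6 mice. KO mice lack Gfi1, a transcriptional repressor of blood cell development. In KD mice the Gfi1 locus carries a human GFI1 cDNA whose level is kept low by a neo cassette in antisense orientation. The labels mark the sick KD mice as AML and the other groups as no AML, while the study describes the disease of KD mice as a myeloproliferative neoplasm.

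MHC class II molecules are pairs of an α and a β chain that show peptides from endosomes to CD4+ T cells. The invariant chain, encoded by Cd74, escorts new pairs and fills their groove, H2-DM exchanges the remaining invariant chain fragment for peptide, and H2-DO binds and restrains H2-DM. Ciita encodes the transactivator that these genes share, which docks on the RFX, CREB and NF-Y factors at the X and Y boxes of their promoters. In BM the genes are known from B cells, dendritic cells and some macrophages.

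The libraries held 26642067 to 42679114 counts on genes. Of the uniquely aligned reads, 42% and 38.8% were assigned to no gene feature in the sick KD libraries, against 26.9% to 33.8% in the other 6. Counts on the mouse Gfi1 gene could not check the labels, since the KD allele carries a human cDNA and the deleted part of the KO allele is not given in the sources used here. Gfi1 was at 13.3 and 29.7 CPM (counts scaled to library size, normalized by TMM) in the libraries labelled old KO and at 5.49 and 7.15 CPM in those labelled sick KD, a log2 fold change of 1.77 ± 0.38 (SE) with an adjusted p of 0.0234 in edgeR's quasi-likelihood test. In the young libraries the log2 fold change of Gfi1 was 1.10 ± 0.13 with an adjusted p of 0.324. The groups below are therefore those of the labels. Old KO 1 and sick KD 1 stood apart from the other library of their group for several of the genes, and results that rest on them are given with and without them.

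For 7 of the 10 genes a RefSeq promoter window (GRCm38.p6) was at hand. The stretches around the Y box core, the 7 letters TGATTGG, are shown for 6 of them because these genes share a regulator and moved in part together. Capitals mark TGATTGG and, where they fall inside the stretch, the 7 letters ACNGATG, each in the direction of the gene. ACNGATG was used here for the X box, and other forms of that box were not searched for. A stretch without ACNGATG was therefore not shown to lack an X box.
H2-Aa, chr17:34287857-34287928, minus strand: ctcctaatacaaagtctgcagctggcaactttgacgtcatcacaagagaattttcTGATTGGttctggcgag
H2-Eb1, chr17:34305751-34305822, plus strand: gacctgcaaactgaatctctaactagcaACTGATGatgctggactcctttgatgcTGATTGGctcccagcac
H2-DMb1, chr17:34153073-34153144, plus strand: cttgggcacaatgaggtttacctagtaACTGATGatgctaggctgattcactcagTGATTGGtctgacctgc
H2-DMb2, chr17:34145102-34145173, plus strand: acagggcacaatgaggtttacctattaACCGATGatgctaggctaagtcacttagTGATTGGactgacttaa
H2-Oa, chr17:34092279-34092350, plus strand: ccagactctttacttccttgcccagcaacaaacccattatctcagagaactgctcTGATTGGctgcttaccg
H2-Ob, chr17:34238791-34238862, plus strand: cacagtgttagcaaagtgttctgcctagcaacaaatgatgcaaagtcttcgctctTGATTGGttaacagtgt

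Start sites here are those of RefSeq, while the gene positions given below are spans from GENCODE. The stretches of H2-DMb1 and H2-DMb2 and the windows of H2-DMa lie inside these spans, as does the end of the H2-Oa stretch. TGATTGG began 45 bases before the start site in H2-Oa, 50 in H2-Aa, 59 in H2-Ob, 61 in H2-Eb1, 63 in H2-DMb1 and 92 in H2-DMb2. Searched on both strands in the 250 bases before each start site, with overlaps allowed, it was in 6 of the 8 windows of these genes and in 7.23% of all 32851 windows. ACNGATG was in 5 of the 8 windows and in 8.31% of all windows. In H2-Eb1, H2-DMb1 and H2-DMb2 it began 88, 91 and 120 bases before the start site, inside the stretches shown. In H2-Oa it lay farther upstream, at 137 bases, and in H2-Aa on the opposite strand at 232 bases. Both motifs occurred together in 5 of the 8 windows and in 0.588% of all windows. The 2 windows of H2-DMa held neither. The stretches of H2-DMb1 and H2-DMb2 were identical at 60 of 72 bases (83.3%), and the other pairs at 26.4% to 41.7%. Both motifs were chosen after these promoters had been seen, and a match is a description of the letters and not of a bound site.

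All 10 genes passed the filter on low counts in every comparison. Per kilobase of summed exons, and averaged over the 8 libraries, Cd74 had the highest level with 212 CPM per kb, followed by the β chains H2-Ab1 (43 CPM per kb) and H2-Eb1 (42.1) and the α chain H2-Aa (35.7). The peptide editors H2-DMb1 and H2-DMa followed with 27.4 and 23.4 CPM per kb. H2-DMb2 (5.88), H2-Oa (4.06), H2-Ob (3.77) and Ciita (2.68) were lowest. The mean is pulled up by old KO 1, and the order differed in sick KD. There H2-DMb1 (18.5 and 26.7 CPM per kb) and H2-DMa (15.5 and 21.1) exceeded H2-Ab1 (6.62 and 14.4), H2-Eb1 (7.77 and 14.4) and H2-Aa (6.82 and 13.7) in both libraries. Cd74 exceeded H2-Ab1 in 8 of 8 libraries, whereas H2-Ab1 exceeded H2-Eb1 in 2 of 8, H2-Aa exceeded H2-DMb1 in 5 of 8 and H2-Oa exceeded H2-Ob in 4 of 8, so these 3 pairs of neighbours could not be ordered.

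**Figure D1:**
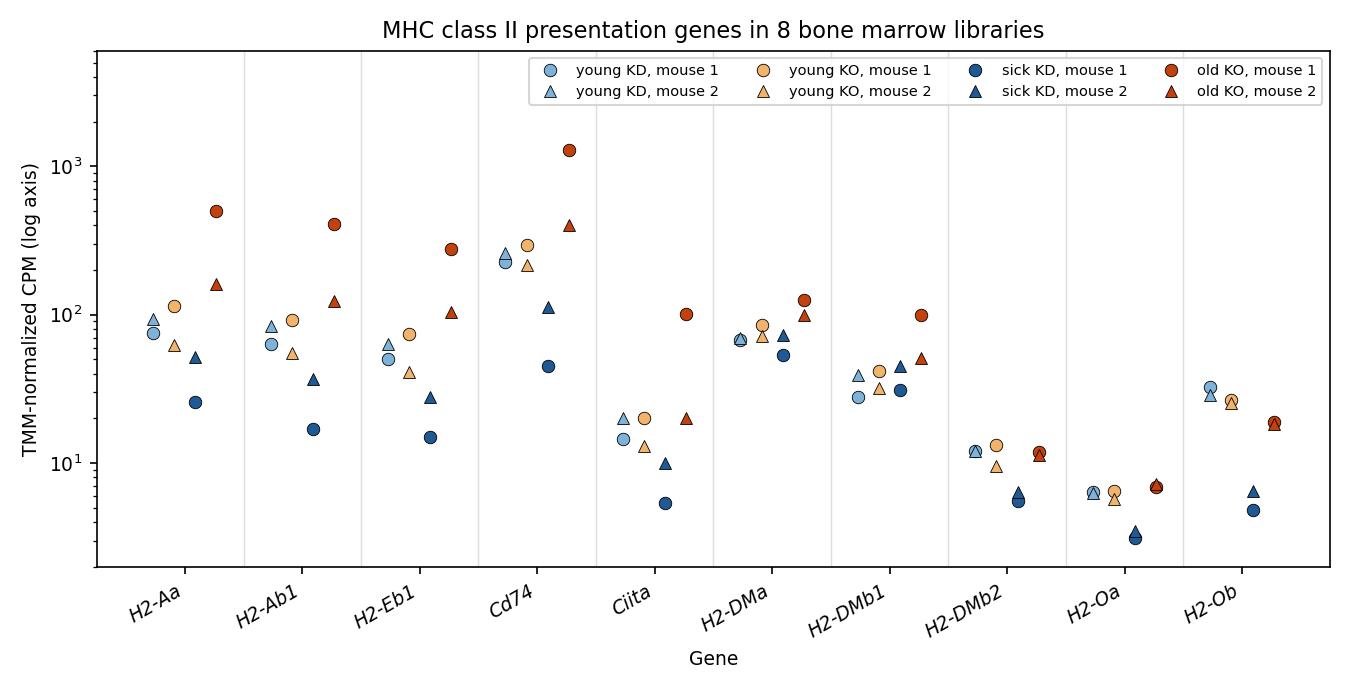
TMM-normalized CPM (log axis) of the 10 class II genes in each library, with a circle for mouse 1 and a triangle for mouse 2 of each group. For H2-Aa, H2-Ab1, H2-Eb1, Cd74 and Ciita the library old KO 1 lies highest and sick KD 1 lowest, while both old KO libraries sit close together for H2-DMb2, H2-Oa and H2-Ob.

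The comparison of old KO with sick KD set marrow of KO mice labelled no AML against that of KD mice labelled AML. These groups differ in genotype as well as in disease, and their ages were not matched mouse by mouse. The parts of genotype, disease and age cannot be told apart here. Of the 10 genes, 9 were higher in old KO at an adjusted p under 0.05 and 0 were lower. Over all 14470 genes tested, 18.1% were called, 9.93% as higher and 8.22% as lower. The median log2 fold change was 2.34 for the 10 genes and 0.00 for all genes tested.

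The chains of the peptide-presenting molecule were all higher in old KO. H2-Aa, the α chain of I-A, was at 500 and 162 CPM in old KO 1 and 2 and at 25.9 and 52.1 CPM in sick KD 1 and 2. Its β chain H2-Ab1 was at 410 and 124 CPM against 17.0 and 36.9 CPM. The β chain of I-E, H2-Eb1, was at 278 and 104 CPM against 15.1 and 28.0 CPM. These genes lie side by side in the class II region, H2-Aa at chr17:34282744-34287823 on the minus strand, H2-Ab1 at chr17:34257689-34269419 and H2-Eb1 at chr17:34305867-34316674 (GRCm38). For each chain both old KO libraries lay above both sick KD libraries, and old KO 1 lay far above old KO 2. The log2 fold changes were 3.08 ± 0.56 (SE) for H2-Aa, 3.31 ± 0.60 for H2-Ab1 and 3.15 ± 0.49 for H2-Eb1, or 8.46-, 9.92- and 8.88-fold, with adjusted p of 0.0149, 0.0149 and 0.0100. The gene of the I-E α chain is annotated as the pseudogene H2-Ea-ps and had 0 counts in each of the 8 libraries, which allows up to 0.121 CPM in the shallowest at 3 counts. C57BL/6 mice are known to lack I-E at the cell surface.

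Cd74, the invariant chain, was at 1283 and 405 CPM in old KO and at 45.4 and 112 CPM in sick KD, a 10.7-fold difference (log2 3.42 ± 0.63, adjusted p = 0.0151). Within a library Cd74 kept close to the chains it escorts. Per kilobase, its ratio to H2-Ab1 was between 4.08 and 5.97 in the 8 libraries, over which H2-Ab1 itself ranged from 6.62 to 160 CPM per kb.

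Ciita, the transactivator, at chr16:10480059-10528418, was at 101 and 20.1 CPM in old KO and at 5.37 and 9.99 CPM in sick KD (log2 2.97 ± 0.72, adjusted p = 0.0325). Old KO 1 again stood out, with old KO 2 at the level of the highest young libraries.

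The peptide editors and their inhibitor differed less. The H2-DM genes lie at chr17:34119541-34139101 (H2-DMa), chr17:34153072-34160230 (H2-DMb1) and chr17:34143307-34151555 (H2-DMb2). H2-DMa was at 125 and 99.2 CPM in old KO and at 53.5 and 72.8 CPM in sick KD (log2 0.83 ± 0.18, adjusted p = 0.0263). H2-DMb1 was at 99.3 and 51.2 CPM against 31.1 and 44.9 CPM, a log2 fold change of 0.99 ± 0.31 that missed the threshold (adjusted p = 0.0712). H2-DMb2, a second β chain gene of H2-DM, was at 11.9 and 11.4 CPM against 5.53 and 6.37 CPM (log2 0.97 ± 0.20, adjusted p = 0.0213). The transcripts of the H2-DM β chain genes share sequence, with 22.7% of the 50-base words of H2-DMb1 found in H2-DMb2, so the division of reads between them is uncertain. H2-DMa overlaps Brd2 on the opposite strand, and the strand setting of the counting is not given in the sources used here.

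The chains of the inhibitor H2-DO, H2-Oa and H2-Ob, separated the groups without the peak in old KO 1. They lie at chr17:34092340-34095234 and chr17:34238903-34254414. H2-Oa was at 6.94 and 7.22 CPM in old KO and at 3.11 and 3.49 CPM in sick KD (log2 1.10 ± 0.22, adjusted p = 0.0205). H2-Ob was at 18.9 and 18.3 CPM against 4.85 and 6.47 CPM (log2 1.72 ± 0.21, adjusted p = 0.00530). For both genes the libraries of a group lay closer to each other than to any library of the other group.

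The count of genes called in this comparison depended on 1 library. Without sick KD 1 it fell from 9 to 2, H2-Eb1 and H2-Ob, although all 10 genes kept their direction, with 1221 genes called in all. Without sick KD 2, old KO 1 or old KO 2 the count was 8, 9 and 10. Leaving out old KO 1 lowered the log2 fold changes of the genes that peak there, to 2.06 for H2-Aa, 2.38 for Cd74 and 1.40 for Ciita, while that of H2-Ob was 1.70.

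**Figure D2:**
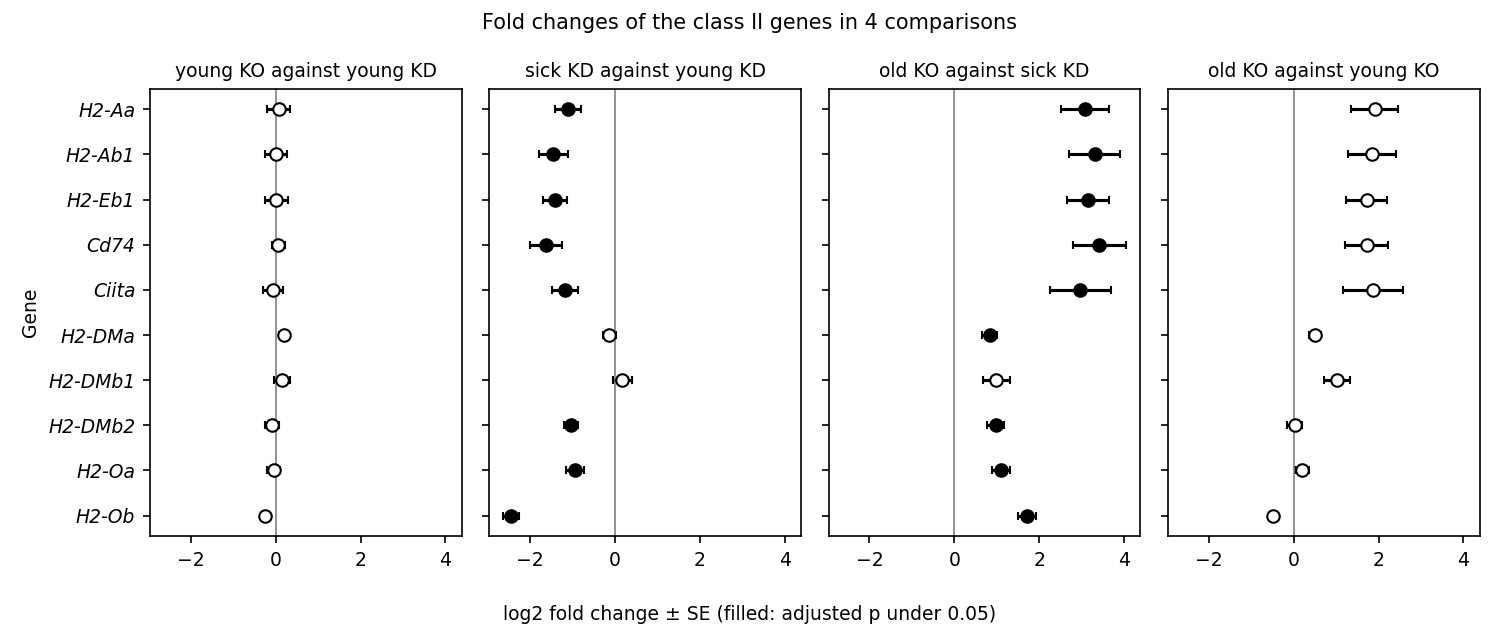
log2 fold change with its SE of each class II gene in 4 comparisons of 2 mice with 2, filled where the adjusted p is under 0.05. In young KO against young KD all points are open and lie near 0, in sick KD against young KD 8 genes lie below 0 and are filled, and in old KO against sick KD 9 are filled above 0.

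Between the young groups 0 of the 10 genes passed the threshold, at a background of 0.0404% of 14839 genes (6 genes). DESeq2 also called 0 of the 10, and 0 had an unadjusted p under 0.05 in edgeR, against 394 of all genes tested. H2-Ab1 was at 92.6 and 55.6 CPM in young KO and at 63.6 and 83.5 CPM in young KD, and the groups overlapped (log2 0.01 ± 0.25, adjusted p = 1.0). Cd74 was at 293 and 217 CPM against 228 and 260 CPM (log2 0.06 ± 0.15, adjusted p = 1.0). H2-Ob came nearest to the threshold with 26.8 and 25.5 CPM in young KO and 32.8 and 28.7 CPM in young KD (log2 -0.24 ± 0.10, unadjusted p = 0.0527, adjusted p = 1.0).

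In sick KD mice 8 of the 10 genes were lower than in young KD mice and 0 were higher. Over the 14656 genes tested, 20.9% were called, 9.45% as higher and 11.4% as lower, and the median log2 fold change was -1.14 for the 10 genes and 0.01 for all. These groups differ in age as well as in disease, which cannot be told apart here. The steepest fall was that of the inhibitor chain H2-Ob, from 32.8 and 28.7 CPM to 4.85 and 6.47 CPM (log2 -2.45 ± 0.18, adjusted p = 0.00327). H2-Oa, from 6.37 and 6.27 CPM to 3.11 and 3.49 CPM (log2 -0.94 ± 0.21, adjusted p = 0.0277), and H2-DMb2, from 12.1 and 12.1 CPM to 5.53 and 6.37 CPM (log2 -1.03 ± 0.17, adjusted p = 0.0134), also fell.

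The presenting chains and their escort were lower by a similar factor. The log2 fold changes were -1.11 ± 0.31 for H2-Aa (adjusted p = 0.0488), -1.45 ± 0.34 for H2-Ab1 (0.0322), -1.41 ± 0.28 for H2-Eb1 (0.0212), -1.63 ± 0.38 for Cd74 (0.0312) and -1.17 ± 0.31 for Ciita (0.0426). For each of these 5 genes both sick KD libraries lay below both young KD libraries, with sick KD 1 the lowest. H2-DMa and H2-DMb1 went another way. H2-DMa was at 53.5 and 72.8 CPM in sick KD and at 67.8 and 69.6 CPM in young KD, and H2-DMb1 at 31.1 and 44.9 CPM against 28.1 and 39.1 CPM. In both genes the groups overlapped, and the log2 fold changes of -0.13 ± 0.16 and 0.17 ± 0.22 did not pass (adjusted p = 0.595 and 0.608). Fitted with all 8 mice the count fell from 8 to 3 (H2-DMb2, H2-Oa and H2-Ob). Without sick KD 1 it was 6.

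Old KO and young KO mice differed in age alone by the labels. None of the 10 genes passed the threshold in edgeR, at a background of 0.929% of 14847 genes, 0.323% as higher and 0.606% as lower. Unadjusted, 8 of the 10 had a p under 0.05, and 1315 of all genes tested. The direction was not shared by all members. H2-Aa was at 500 and 162 CPM in old KO and at 114 and 62.0 CPM in young KO (log2 1.91 ± 0.55, adjusted p = 0.317), and Cd74 at 1283 and 405 CPM against 293 and 217 CPM (log2 1.72 ± 0.51, adjusted p = 0.333). H2-DMb1 was at 99.3 and 51.2 CPM against 42.0 and 32.2 CPM (log2 1.02 ± 0.31, adjusted p = 0.359). For these 3 genes the groups did not overlap. H2-DMb2 (log2 0.02 ± 0.18) and H2-Oa (0.20 ± 0.17) lay near 0, and H2-Ob was at 18.9 and 18.3 CPM against 26.8 and 25.5 CPM, lower in both old KO libraries (log2 -0.49 ± 0.10, adjusted p = 0.128). The calls rested on the library and on the test. Without old KO 2, 6 of the 10 were called as higher, while without old KO 1 the count was 0. DESeq2 called H2-DMa as higher and H2-Ob as lower.

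Whether the gap between KO and KD libraries widened from the young pair of groups to the old and sick pair was asked with an interaction term over the 8 mice. The term was positive and past the threshold for 6 of the 10 genes, where 7.43% of 15102 genes were called in either direction. These 6 were Cd74 (log2 3.35 ± 0.77, adjusted p = 0.0414), H2-Ab1 (3.29 ± 0.79, 0.0449), H2-Eb1 (3.12 ± 0.68, 0.0369), H2-Ob (1.95 ± 0.21, 0.00800), H2-Oa (1.14 ± 0.24, 0.0344) and H2-DMb2 (1.05 ± 0.25, 0.0452). H2-Aa (3.01 ± 0.76, 0.0509) and Ciita (3.02 ± 0.93, 0.0812) had a difference of the same size and did not pass. Leaving out sick KD 1, old KO 1 or any of the 4 young libraries reduced the count to 1, H2-Ob.

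The 2 old KO libraries were not alike for these genes. Old KO 1 came from the older mouse of its group, at 158 days against 101, and so did sick KD 1, at 187 days against 78. Age and other differences between the 2 mice of a group cannot be told apart here. For 5 of the 10, H2-Aa, H2-Ab1, H2-Eb1, Cd74 and Ciita, old KO 1 was at least 2-fold above old KO 2, as were 3.01% of the 14470 genes tested. H2-Aa was 3.09-fold higher in old KO 1, and H2-Ob was at 18.9 and 18.3 CPM. Of 119 other genes in the pathway and marker lists, 5 (4.2%) were at least 2-fold higher in old KO 1. They were Jchain, the joining chain of secreted immunoglobulin (533 and 259 CPM), Prdm1, a regulator of plasma cells (8.99 and 4.49 CPM), Itgax, the integrin CD11c of dendritic cells (19.1 and 9.32 CPM), and the genes of the PD-1 ligands Cd274 (14.5 and 6.79 CPM) and Pdcd1lg2 (1.52 and 0.485 CPM). In the sick KD group H2-Aa, H2-Ab1 and Cd74 were at least 2-fold higher in sick KD 2 than in sick KD 1, 3 of the 10, as were 3.05% of the genes tested. Of the 119 other listed genes 16 (13.4%) were at least 2-fold higher in sick KD 2. Most were markers of B cells of all stages or of pro-B and pre-B cells. Among them were Igll1, a chain of the pre-B cell receptor (4.98 and 0.323 CPM in sick KD 2 and 1), and Rag1, a recombinase of antigen receptor genes (7.11 and 0.606 CPM). Ebf1, a transcription factor of early B cells, was at 13.2 and 1.78 CPM. None of the 6 mature B cell markers counted was among them, and their sum was 20.1 and 21.4 CPM in sick KD 2 and 1. These 5 and 3 members, and the other genes named here, were chosen after the values had been seen.

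Across the 8 libraries 8 of the 10 genes fell into a pair of sets. Pearson correlations of log2(CPM + 1) were at least 0.96 among H2-Aa, H2-Ab1, H2-Eb1, Cd74 and Ciita, and 0.89 to 0.96 among H2-DMb2, H2-Oa and H2-Ob, but 0.47 to 0.85 between these sets. H2-DMa lay with the first set (0.90 to 0.96), and H2-DMb1 less closely (0.76 to 0.86). The 8 points share 4 groups, so the correlations describe these libraries only. Per kilobase, the ratio of H2-DO to H2-DM chains was 0.0837 and 0.0716 in sick KD, 0.0827 and 0.13 in old KO, 0.168 and 0.194 in young KO and 0.245 and 0.194 in young KD. Both old or sick groups thus lay below both young groups in the amount of inhibitor RNA for each unit of editor RNA, a ratio computed after the values had been seen.

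The genes most like the mean z-score of H2-Aa, H2-Ab1, H2-Eb1 and Cd74 were sought among 9912 protein-coding genes with a mean of at least 5 CPM, by Pearson correlation of log2(CPM + 1) over the 8 libraries. They were Cd99l2 (0.980), Fam84b (0.977), Sdc1 (0.976), Rab11fip5 (0.974), Lmo2 (0.972), Itgax (0.967), Ear6 (0.967), Pccb (0.966), Arhgef40 (0.963) and Unc13d (0.963). Their ranges differed. Ear6 was at 96.1 and 40.8 CPM in old KO and at 9.73 and 15.5 CPM in sick KD (log2 2.44 ± 0.41, adjusted p = 0.0124), and Sdc1, the plasma cell marker CD138, at 32.9 and 24.5 CPM against 6.02 and 10.5 CPM (log2 1.80 ± 0.29, adjusted p = 0.0103). Cd99l2 varied from 14.9 to 22.0 CPM, with a log2 fold change of 0.39 ± 0.16 that did not pass (adjusted p = 0.124).

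Most of the genes lie in the MHC on chromosome 17. Within 250 kb of the start of H2-Ab1 were 23 protein-coding genes, 8 of them members. Of the 15 others, 11 could be tested. In old KO against sick KD 9.93% of all genes tested were called as higher, and 3 of these 11 were. These were Tap1 (log2 0.75 ± 0.19, adjusted p = 0.0384) and Tap2 (0.83 ± 0.15, 0.0131), the peptide transporter of class I presentation, and H2-Eb2 (2.57 ± 0.36, 0.00725), a class II β chain gene with 8 to 83 counts. The immunoproteasome genes Psmb8 and Psmb9, which lie beside Tap1, had log2 fold changes of 0.31 ± 0.15 and 0.31 ± 0.14 that did not pass (adjusted p = 0.195 and 0.155). Cd74 on chromosome 18 and Ciita on chromosome 16 lie outside the region.

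**Figure D3:**
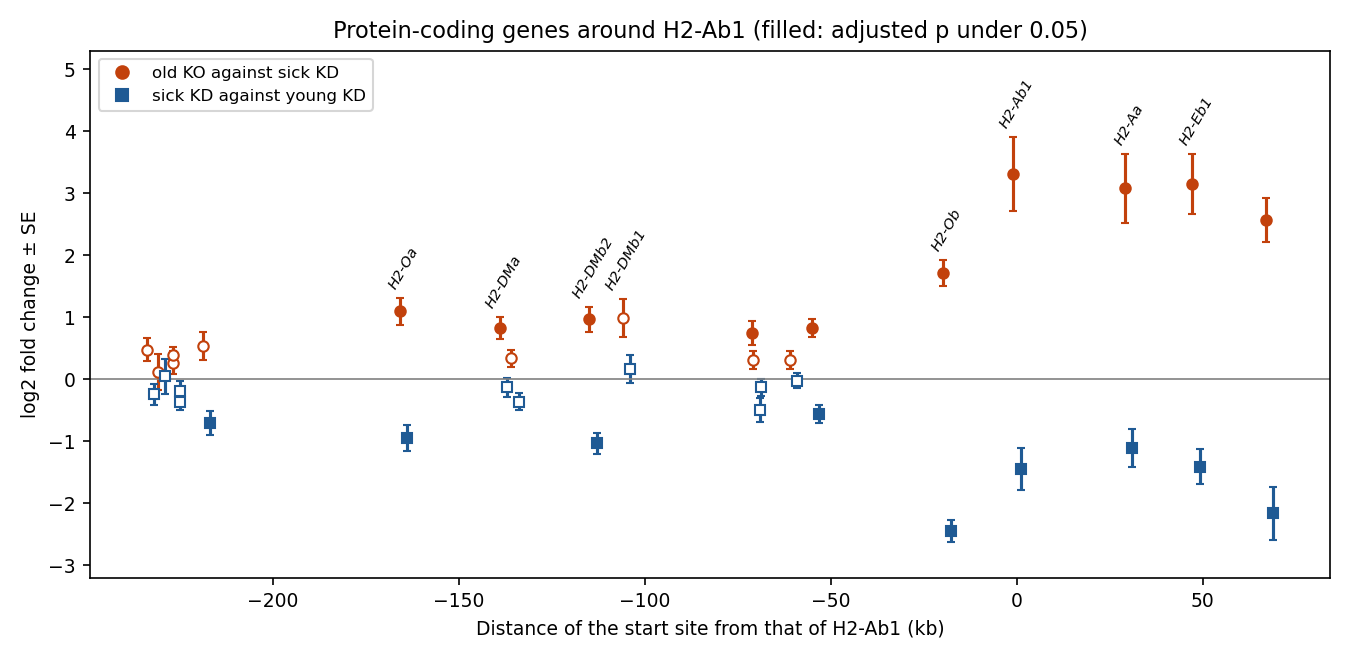
log2 fold change with its SE of the protein-coding genes that could be tested around H2-Ab1, against the distance of their start site from that of H2-Ab1 in kb, for old KO against sick KD (circles) and sick KD against young KD (squares), filled where the adjusted p is under 0.05. H2-Ab1, H2-Aa, H2-Eb1 and H2-Eb2, from 0 to 68.0 kb, have log2 fold changes of 2.57 to 3.31 in old KO against sick KD, while the genes from Ring1 to Col11a2, at -233 to -218 kb, are open in that comparison.

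Of the 7 factors on which the transactivator docks, none was higher in old KO and Nfyc was lower (log2 -0.43 ± 0.11, adjusted p = 0.0436), with median log2 fold changes of 0.03 for the list and 0.00 for all genes. For Rfx5, of the RFX complex at the X box, the log2 value was 0.03 ± 0.13 (adjusted p = 0.894). Interferon gamma signalling induces Ciita in many cells, and 2 of its 7 listed genes were higher in old KO. Over all genes tested, 9.93% were called as higher and 8.22% as lower. Irf1, a transcription factor that acts on a Ciita promoter, was at 100 and 124 CPM in old KO, 42.4 and 51.2 CPM in sick KD and 101 to 111 CPM in the young libraries (log2 1.27 ± 0.15, adjusted p = 0.00532). Irf1 was also lower in sick KD than in young KD (log2 -1.22 ± 0.13, adjusted p = 0.00489). Unlike Ciita, Irf1 was not higher in old KO 1 than in old KO 2. Ifng, the cytokine itself, had 5 and 8 counts in sick KD and 27 and 24 in young KD (log2 -1.50 ± 0.41, adjusted p = 0.0456), and 14 and 21 in old KO, which did not differ from sick KD past the threshold (adjusted p = 0.154).

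Of 9 listed genes for the endosomal proteases and the reductase that prepare peptides and trim the invariant chain, 1 was higher in old KO, the asparagine endopeptidase Lgmn (log2 0.84 ± 0.11, adjusted p = 0.00690). Ctss, the main protease of the invariant chain in B cells and dendritic cells, did not pass (log2 0.27 ± 0.14, adjusted p = 0.206). Among all genes tested the share called as higher was 9.93%, and 8.22% were called as lower. All 3 genes of class II surface turnover were called. Cd83, which keeps class II at the surface, was higher in old KO with 6.59 and 7.74 CPM against 1.57 and 1.56 CPM (log2 2.19 ± 0.25, adjusted p = 0.00504). The ubiquitin ligases March1 and March8, which send class II to degradation, differed in opposite directions. March8 was higher (log2 1.49 ± 0.18, adjusted p = 0.00520) and March1 lower in old KO, with 125 and 131 CPM against 274 and 196 CPM (log2 -0.87 ± 0.18, adjusted p = 0.0205).

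Among 6 listed genes for costimulatory molecules and PD-1 ligands Cd40 was higher in old KO, with 13.1 and 12.7 CPM against 2.22 and 5.44 CPM (log2 1.75 ± 0.39, adjusted p = 0.0265). Cd80 (log2 -0.72 ± 0.29, adjusted p = 0.130) and Cd86 (-0.39 ± 0.15, 0.106) did not pass. Class I presentation moved less than class II. Of its 13 listed genes 2 were higher, Tap1 and Tap2, and 1 was lower, the chaperone Pdia3 (log2 -0.57 ± 0.14, adjusted p = 0.0365), with a median log2 fold change of 0.34. The class I heavy chain H2-K1 missed the threshold (log2 0.85 ± 0.24, adjusted p = 0.0508). Several class I values depended on the sick KD library. Without sick KD 1 the log2 fold changes were 0.53 for H2-K1, 0.33 for H2-D1 and 0.32 for Tapbp. Without sick KD 2 they were 1.26, 1.09 and 0.88. Others did not rise in that way, with 0.11 and -0.20 for Erap1 and -0.48 and -0.65 for Pdia3. Over all genes tested, 9.93% were called as higher and 8.22% as lower.

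Markers of the cells that carry class II moved with these genes in part. In bulk BM, fewer cells of a type and less RNA in each cell cannot be told apart. The summed level of 8 markers of B cells of all stages was 34.6 and 85.1 CPM in sick KD, 124 and 172 CPM in old KO, 469 and 573 CPM in young KO and 661 and 570 CPM in young KD. All 8 markers were lower in sick KD than in young KD, and all 8 were lower in old KO than in young KO, with a median log2 fold change of -1.89 for the list and 0.00 for all genes tested. Without young KO 2 the latter count was 0, and it was 1 with all 8 mice in the fit. In the same edgeR comparison 0 of the 10 class II genes were called as lower, and DESeq2 called H2-Ob. Over all genes tested in edgeR, 0.606% were called as lower there and 11.4% in sick KD against young KD. H2-Aa per unit of summed B cell markers was 4.04 and 0.943 in old KO, 0.750 and 0.613 in sick KD, and 0.108 to 0.243 in the 4 young libraries.

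H2-Ob stood nearer to the B cell markers. Its level ran from 4.85 CPM in sick KD 1 to 32.8 CPM in young KD 1, the libraries with the lowest and the highest B cell sum. Per unit of B cell markers it was 0.153 and 0.106 in old KO, 0.140 and 0.0761 in sick KD and 0.0444 to 0.0570 in the young libraries. The 6 mature B cell markers that were counted differed in the same comparisons, with 6 of 6 higher in old KO than in sick KD, among them Cxcr5, a chemokine receptor of follicular B cells (log2 2.75 ± 0.33, adjusted p = 0.00532), Fcer2a (2.59 ± 0.29, 0.00496) and Fcmr (2.27 ± 0.30, 0.00627). The share called as higher over all genes tested was 9.93%. Of 7 pro-B and pre-B cell markers 1 was higher, Il7r (1.32 ± 0.29, 0.0249), and of the 8 markers of all stages 3. Without sick KD 2 these counts were 6 and 8, and without sick KD 1 they were 0 and 2, while the mature B cell count was 5 or 6 with any 1 library left out.

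**Figure D4:**
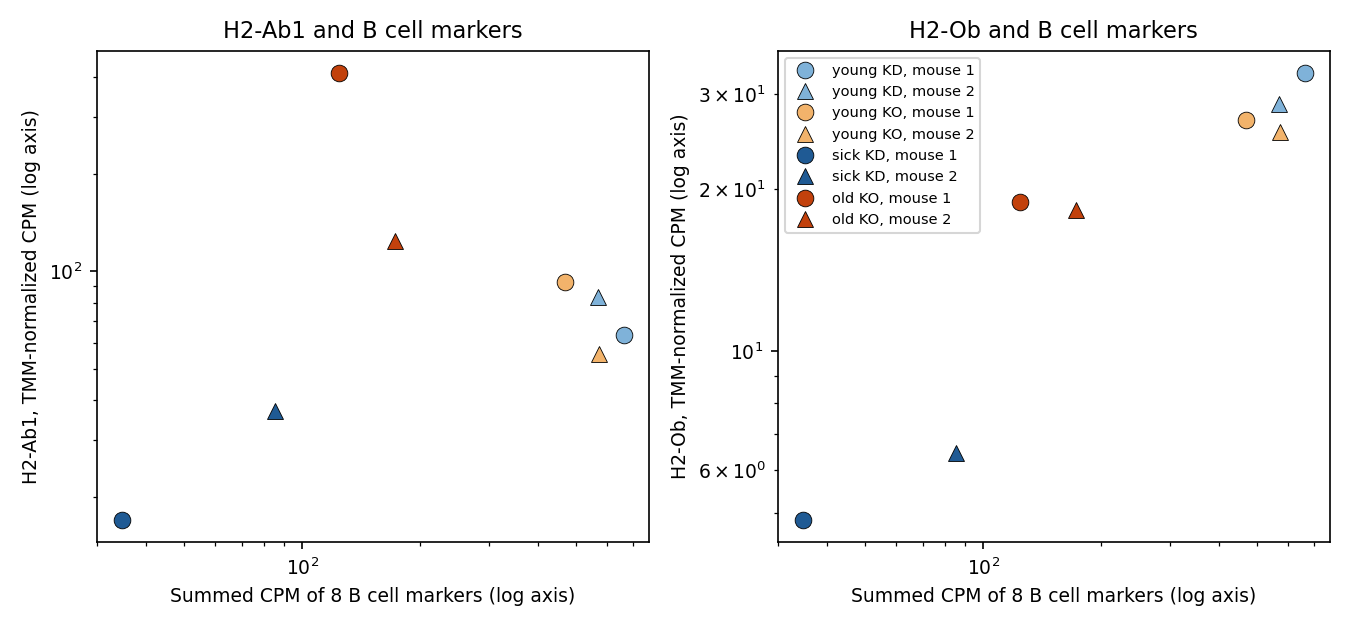
TMM-normalized CPM of H2-Ab1 (left) and H2-Ob (right) against the summed CPM of 8 B cell markers in each library, both on log axes, with a circle for mouse 1 and a triangle for mouse 2. The old KO libraries have the highest H2-Ab1 levels, 410 and 124 CPM, at 124 and 172 CPM of B cell markers, whereas H2-Ob is highest in the young libraries.

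Macrophage markers were higher in old KO for 10 of 11 genes and lower in sick KD than in young KD for 10 of 11. The shares over all genes tested were 9.93% called as higher in old KO than in sick KD and 11.4% as lower in sick KD than in young KD. The largest differences between old KO and sick KD were those of Cd5l (log2 3.18 ± 0.31, adjusted p = 0.00416), Cd163, the hemoglobin scavenger receptor (3.17 ± 0.37, 0.00512), and C1qa, a complement subunit (2.94 ± 0.21, 0.00275). With each library left out in turn, 9 or 10 macrophage markers were called as higher. C1qa was at 26.8 and 22.2 CPM in old KO and at 3.55 and 2.85 CPM in sick KD, without the gap between old KO 1 and 2 seen for H2-Aa. The summed macrophage markers were at 554 and 457 CPM in old KO, 265 and 233 CPM in sick KD, and 305 to 416 CPM in the young libraries. The summed markers of conventional dendritic cells were at 139 and 108 CPM in old KO, 75.3 and 80.0 CPM in sick KD and 62.5 to 94.6 CPM in the young libraries. Of 7 tested, 5 were higher in old KO than in sick KD. The largest were Cd209a (log2 2.94 ± 0.42, adjusted p = 0.00785), Zbtb46, a transcription factor of this lineage (2.23 ± 0.36, 0.0107), and Itgax (1.69 ± 0.46, 0.0452). Leaving out each library in turn gave 2.42 to 3.79 for Cd209a, 1.74 to 2.60 for Zbtb46 and 1.10 to 2.37 for Itgax. H2-Aa per unit of dendritic cell markers was 3.61 and 1.49 in old KO, 0.344 and 0.652 in sick KD and 0.992 to 1.21 in the young libraries. Flt3 made up a large part of that sum, with 49.1 and 45.0 CPM in sick KD and 20.3 to 34.5 CPM in the young libraries. In sick KD against young KD Flt3 was 1.57-fold higher. Zbtb46 and Cd209a were 3.76- and 3.63-fold lower, Clec10a 1.14-fold and H2-Aa 2.16-fold. The ratio therefore depends on the markers chosen.

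**Figure D5:**
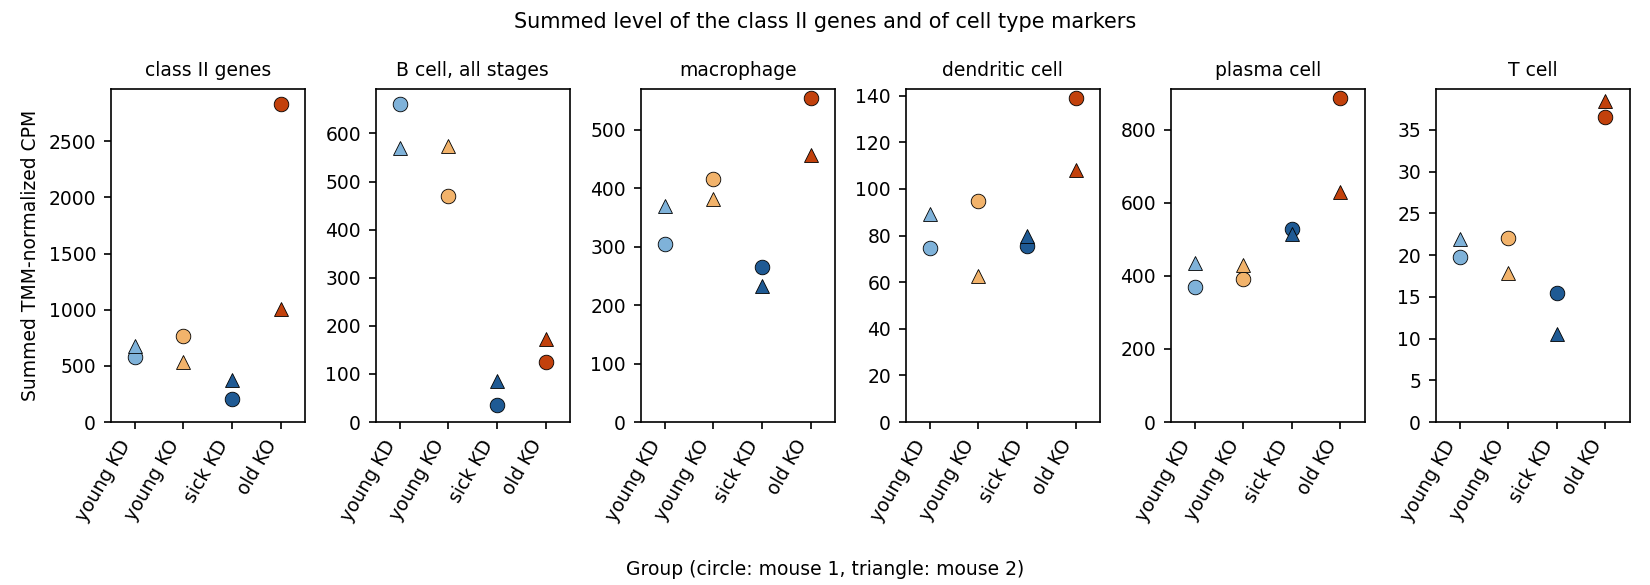
Summed TMM-normalized CPM of the 10 class II genes and of 5 marker lists in each group, with axes from 0, a circle for mouse 1 and a triangle for mouse 2. The class II sum is 2834 CPM in old KO 1 and 1003 CPM in old KO 2, B cell markers are highest in the young groups, and macrophage, dendritic cell, plasma cell and T cell markers are highest in old KO.

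Other lists were also compared between old KO and sick KD. Of all genes tested there, 9.93% were called as higher and 8.22% as lower. Of 5 plasma cell markers 3 were higher, Jchain (log2 1.90 ± 0.31, adjusted p = 0.0115), Sdc1 and Tnfrsf17 (1.77 ± 0.37, 0.0220). Of 6 T cell markers 5 were higher, Cd4 the most (2.13 ± 0.32, 0.00928), with a summed level of 36.5 and 38.5 CPM in old KO against 15.5 and 10.6 CPM in sick KD. Of 6 tested plasmacytoid dendritic cell markers 2 were higher, Siglech (1.92 ± 0.43, 0.0278) and Pacsin1 (1.60 ± 0.39, 0.0335), and 0 to 3 with a library left out. Monocyte markers, with 8257 and 8309 CPM in old KO and 9751 and 9103 CPM in sick KD, had 1 gene higher, Cx3cr1 (1.18 ± 0.16, 0.00628), and 1 lower, Ms4a6c (-0.58 ± 0.14, 0.0301). Among 8 neutrophil markers 3 were lower in old KO, S100a8 (-3.76 ± 0.58, 0.00972), S100a9 (-3.75 ± 0.63, 0.0122) and Mmp8 (-0.89 ± 0.20, 0.0289), and Retnlg was higher (1.77 ± 0.27, 0.00944). S100a8 was at 2141 and 646 CPM in sick KD 1 and 2 and at 73.2 and 132 CPM in old KO, and S100a9 at 1111 and 285 CPM against 37.7 and 65.7 CPM. Without sick KD 1 the log2 fold changes were -2.65 for S100a8 and -2.46 for S100a9, both still past the threshold, and Mmp8 did not pass (-0.57, adjusted p = 0.0640). Tap1, Pdia3, Nfyc, Il7r, Itgax, Tnfrsf17, Pacsin1 and Ms4a6c also missed the threshold without sick KD 1, with the same direction. Without sick KD 2 this was so for Nfyc, Tnfrsf17, Pacsin1 and Siglech. Without old KO 1 it was so for Pdia3, Nfyc, Itgax, Tnfrsf17, Pacsin1, Ms4a6c and Mmp8. Without old KO 2 it was so for Tap1, Pdia3, Nfyc, Il7r and Ms4a6c. Of 4 NK cell markers 0 passed. Between the young groups 0 genes of any list were called. In sick KD against young KD all 7 pro-B and pre-B and all 6 mature B cell markers were lower, as were 4 of 6 plasmacytoid dendritic cell, 2 of 8 conventional dendritic cell, 2 of 6 T cell, 2 of 4 NK cell, 1 of 6 monocyte and 1 of 8 neutrophil markers. Higher in that comparison were 2 of 6 monocyte markers and 1 each of 8 neutrophil, 5 plasma cell and 8 conventional dendritic cell markers. Of all genes tested in it, 9.45% were called as higher and 11.4% as lower. In old KO against young KO 4 of the 7 pro-B and pre-B markers, 1 mature B cell, 2 neutrophil and 1 NK cell marker were lower, and no marker was higher. Of all genes tested there, 0.323% were called as higher and 0.606% as lower. The part of these cells in the class II levels was not tested.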

How the data were processed

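RNA-seq of whole bone marrow from 8 mice was used, 2 per group. Stranded poly(A) libraries were sequenced, and the authors aligned the reads to mm10 with TopHat2 2.0.10, processed them with SAMtools and counted them with HTSeq on Ensembl genes. The deposited values are raw counts of 41214 genes per mouse without normalization. The Ensembl release and the strand setting are not given in the sources used here. Symbols, positions and exon lengths came from GENCODE M21 on GRCm38 (40254 identifiers with a symbol), and promoters from RefSeq on GRCm38.p6.

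The 10 genes, the pathway and marker lists and the tests were chosen with earlier results of these data known. Groups follow the sample labels, and the labels do not say whether mice were litter mates. In each group the 2 libraries differed by more than sampling noise (chi-square per degree of freedom of 21.8 to 35.9 over genes), so each counted as a replicate.

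Genes were tested with edgeR 4.0.16 (R 4.3.3): filterByExpr by group, TMM, the quasi-likelihood test and Benjamini-Hochberg adjustment over all genes tested, with a threshold of 0.05. Comparisons were fitted on their own 4 mice and the interaction on all 8. The SE was taken as the size of the log2 fold change over the square root of the F statistic. log2 levels use a pseudocount of 1. Alternatives were RLE and upper-quartile factors, other filters on low counts, DESeq2 1.42.0, removal of immunoglobulin, T-cell receptor, hemoglobin and the 50 most counted genes, removal of GC and length trends, a joint fit of all 8 mice, a pseudocount of 5, and removal of each mouse in turn. The scripts were tested on simulated data. The depth of 26642067 to 42679114 counts leaves the spread between 2 mice as the larger limit on precision.

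Named genes were all 10 members, up to 3 genes of each list with the largest change among those called, the 10 protein-coding genes most like the class II chains, neighbours within 250 kb of H2-Ab1, and Gfi1. Other listed genes that did not pass, named for their role, were chosen after their values were seen. The marker Ighd was not analysed here, and single values of some listed genes are not reported here.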

Additional observations from a re-analysis of the deposited data

Results flagged for a closer look

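For 6 of the 10 genes the gap between KO and KD libraries was larger in the old and sick groups than in the young ones by a test of that change itself, the interaction term in edgeR over the 8 libraries. Of all 15102 genes tested, 7.43% were called in either direction. The change, on the log2 scale, was 3.35 for Cd74, 3.29 for H2-Ab1, 3.12 for H2-Eb1, 1.95 for H2-Ob, 1.14 for H2-Oa and 1.05 for H2-DMb2, with adjusted p from 0.00800 for H2-Ob to 0.0452 for H2-DMb2. In young mice the KO-to-KD difference of these genes was between -0.24 and 0.06, and in old or sick mice between 0.97 and 3.42. Among them H2-Ob alone stayed past the threshold with each of the 8 libraries left out in turn.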

How the results depend on the processing

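No paired analysis was possible because the labels give the mice individual numbers that are not shared between groups. The number of the 10 genes called moved by more than 1.5 times under these alternatives. For sick KD against young KD it was 3 with all 8 mice fitted together. For old KO against young KO it was 8 without a filter on low counts and 2 with DESeq2. For the interaction it was 10 without that filter. When single mice were left out the count was 2 to 10 for old KO against sick KD, 6 to 8 for sick KD against young KD, 0 to 6 for old KO against young KO, 1 to 8 for the interaction and 0 to 0 for young KO against young KD. The calls over all genes can change under these settings too, and their shares are not given beside these counts. Where an arm was left with 1 library, that library was assumed to vary like the other groups. Fewer mice in these fits leave fewer degrees of freedom, and the cause was not tested otherwise.

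Log2 fold changes turned direction only where the reported value was at most 0.17 in size. For young KO against young KD, H2-Ab1 was -0.01 with GC and length trends removed. Without young KO replicate 1 the values were -0.44 for H2-Aa, -0.40 for H2-Ab1, -0.47 for H2-Eb1, -0.17 for Cd74 and -0.06 for H2-DMb1, and without young KO replicate 2 they were 0.21 for Ciita, 0.12 for H2-DMb2 and 0.04 for H2-Oa. Without young KD replicate 1 they were -0.08 for H2-Aa, -0.17 for H2-Ab1, -0.14 for H2-Eb1, -0.03 for Cd74 and -0.08 for H2-DMb1, and without young KD replicate 2 it was 0.19 for Ciita. For sick KD against young KD, H2-DMa was 0.02 with GC and length trends removed and 0.08 without sick KD replicate 1, and H2-DMb1 was -0.11 without sick KD replicate 2 and -0.05 without young KD replicate 1. For old KO against young KO, H2-DMb2 was -0.05 with those trends removed, -0.02 without old KO replicate 1 and -0.18 without young KO replicate 2. Over the fits with a mouse left out, the highest values of these genes for young KO against young KD were 0.44 for H2-Aa, 0.33 for H2-Ab1, 0.37 for H2-Eb1, 0.26 for Cd74 and 0.40 for H2-DMb1, and the lowest were -0.41 for Ciita, -0.34 for H2-DMb2 and -0.14 for H2-Oa. For sick KD against young KD the lowest for H2-DMa was -0.37 and the highest for H2-DMb1 0.42, and for old KO against young KO the highest for H2-DMb2 was 0.27. The mean log2(CPM + 1) of the 10 genes spanned 2.82 from the lowest to the highest library, and 2.53 to 2.96 under other scalings and a pseudocount of 5.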
